A study of Homo sapiens with 6 samples.

Results

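Wnt signaling genes were compared between the renal carcinoma line 786-O and its derivative labelled FOXD1null, with attention to the secretion of Wnt proteins and to the nuclear factors that act at Wnt target genes. The set was 10 genes named by role, WLS, PORCN, WNT5A, FZD1, LEF1, TCF7, TCF7L1, TCF7L2, AXIN2 and DKK1, and it was matched by symbol and Ensembl identifier to the 16922 genes of the expression table. Of these, 9 were measured, and DKK1, a secreted antagonist of Wnt co-receptors, is not analysed here. The series comprised 3 libraries labelled FOXD1null (genotype FOXD1 null) and 3 libraries labelled 786-O (genotype parental), named as biological triplicates. 786-O is an established line of clear cell renal cell carcinoma, and the FOXD1null line is a derivative that the same laboratory had made earlier, so that differences between the lines and effects of the FOXD1 allele cannot be told apart. Both lines were grown on plastic in RPMI-1640 medium with fetal bovine serum to 70% confluency, no treatment is named, and RNA libraries were read as 2 x 150 bp pairs. The 3 samples of a line are not described as separate cultures beyond the word triplicate, so p-values measure the spread between these libraries.

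Wnt proteins are secreted lipoproteins. PORCN, an acyltransferase of the endoplasmic reticulum, attaches the lipid, and WLS, a membrane carrier, takes the lipid-modified protein to the cell surface, where it binds a Frizzled receptor such as FZD1. In the branch that runs through beta-catenin, receptor activation keeps beta-catenin from a destruction complex built on AXIN1 or AXIN2, and beta-catenin then enters the nucleus and binds the HMG-box proteins LEF1, TCF7, TCF7L1 and TCF7L2. These factors repress target genes when bound to TLE proteins and activate them with beta-catenin, and LEF1, TCF7 and AXIN2 are themselves targets in many tissues. WNT5A more often acts through the branches of planar cell polarity and calcium, which do not need beta-catenin. In the kidney, Wnt signals drive the formation of the nephron.

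Sequences before the transcription start were printed for the members whose RNA differed most between the lines, WLS, LEF1 and TCF7, and for SP5, a Wnt target gene chosen after its values were seen. Each is the 250 bases before a start in the RefSeq annotation of GRCh38.p14, written 5′ to 3′ on the strand of the gene. The windows lie at chr1:68232524-68232773 (minus strand) for WLS, chr4:108166302-108166551 (minus strand) for LEF1, chr5:134115363-134115612 (plus strand) for TCF7 and chr2:170715087-170715336 (plus strand) for SP5. Capitals mark matches, on either strand, to the TCF/LEF core (CTTTGA or CTTTGT) or the forkhead core (GTAAACA or ATAAACA), and no match overlaps another.
WLS: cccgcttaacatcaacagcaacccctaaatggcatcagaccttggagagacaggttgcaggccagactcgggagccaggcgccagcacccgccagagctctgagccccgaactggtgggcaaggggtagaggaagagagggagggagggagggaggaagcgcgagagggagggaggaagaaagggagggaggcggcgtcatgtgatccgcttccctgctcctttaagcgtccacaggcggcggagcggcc
LEF1: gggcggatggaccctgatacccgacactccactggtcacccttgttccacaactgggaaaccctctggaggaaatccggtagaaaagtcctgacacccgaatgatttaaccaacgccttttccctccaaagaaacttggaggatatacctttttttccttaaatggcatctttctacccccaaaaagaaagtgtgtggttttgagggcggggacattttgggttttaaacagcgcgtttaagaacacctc
TCF7: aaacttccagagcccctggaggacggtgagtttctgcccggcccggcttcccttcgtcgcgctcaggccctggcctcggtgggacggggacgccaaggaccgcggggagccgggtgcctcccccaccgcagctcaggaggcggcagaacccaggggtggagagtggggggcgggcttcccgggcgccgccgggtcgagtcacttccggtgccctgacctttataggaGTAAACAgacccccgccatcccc
SP5: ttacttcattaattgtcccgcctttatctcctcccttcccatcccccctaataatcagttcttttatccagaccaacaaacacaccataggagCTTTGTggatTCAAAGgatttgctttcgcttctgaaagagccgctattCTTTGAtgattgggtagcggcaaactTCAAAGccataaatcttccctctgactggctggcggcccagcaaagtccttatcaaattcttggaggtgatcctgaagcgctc
The WLS, LEF1 and TCF7 windows lie inside the gene spans given below, so bases before the outermost annotated start of these genes were not searched. The WLS and LEF1 windows held neither core. The TCF7 window held 1 forkhead core, GTAAACA, which begins 23 bases before the start, and no TCF/LEF core, while another TCF7 start had 2 TCF/LEF cores in its window. The SP5 window held 4 TCF/LEF cores, which begin 157, 147, 109 and 83 bases before the start. Of 35116 windows of the same length at all RefSeq starts, 22.8% held at least 1 TCF/LEF core, 0.057% (20 windows) held at least 4, 6.56% held a forkhead core and 2.98% held GTAAACA. RefSeq windows were matched for 9 of the 10 genes named, all but AXIN2, with 15 windows in all. Among the other measured members, PORCN, TCF7L2 and FZD1 each had 1 TCF/LEF core in 1 window. TCF7L2 had 1 forkhead core in another window. A match is a string of letters and was not tested as a binding site.

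Total reads in genes lay between 34361770 and 37424528 in the libraries labelled FOXD1null and between 30982463 and 37843830 in 786-O. FOXD1 RNA was higher in the libraries labelled FOXD1null, with 1277, 1048 and 901 normalized counts in replicates 1, 2 and 3, against 432, 498 and 480 in 786-O (log2 fold change 1.18, standard error 0.13, limma adjusted p = 3.9e-04). A null allele can keep its RNA, and every direction below is given by the label. Markers of renal carcinoma cells, 9 of 10 measured, summed to between 226650 and 245462 normalized counts in the libraries labelled FOXD1null and between 179215 and 185938 in 786-O. Most of that sum was VIM (mean 164458 in FOXD1null and 118729 in 786-O), and by limma VIM and PAX8 were higher, PAX2 was lower and the other 6 did not pass. A library stood apart in each group. Replicate 1 labelled FOXD1null held intermediate amounts of genes that were nearly absent from replicates 2 and 3. Cardiomyocyte markers (5 of 8 measured) summed to 412, 3.03 and 2.91 normalized counts in replicates 1, 2 and 3 labelled FOXD1null, against 2.23, 4685 and 58.9 in 786-O, so that 786-O replicate 2 stood apart. Hepatocyte markers (5 of 10 measured) other than SERPINA1 were also highest in 786-O replicate 2. So were digestive tract carcinoma markers (8 of 10 measured) other than CLDN4. Among these, CEACAM5 had 76.5, 0 and 0 in FOXD1null, against 0, 873 and 46.9 in 786-O. SERPINA1 and CLDN4 were called higher in FOXD1null. The part of FOXD1null replicate 1 and 786-O replicate 2 in the results was not tested beyond leaving them out. Calls that leaving out a library changed are given for the Wnt pathway genes named below, and not for other genes.

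Among the 9 measured members, LEF1, WLS, PORCN and TCF7L2 fell, TCF7 and FZD1 rose, and WNT5A, TCF7L1 and AXIN2 did not pass the test. A gene was differentially expressed when its adjusted p in limma was at or under 0.05. Members called were 6 of 9, while 33.4% of all 16901 genes tested were called, 16.3% higher and 17.1% lower (2751 and 2888 genes). With all libraries scaled to equal totals, that split was 2040 higher and 3873 lower, and the members called were the same 6. The groups did not overlap for the same 6 members, while the groups did not overlap for 49% of all genes tested. Values below are normalized counts, which are reads divided by a size factor per library, unless a log2 scale is named.

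**Figure D1:**
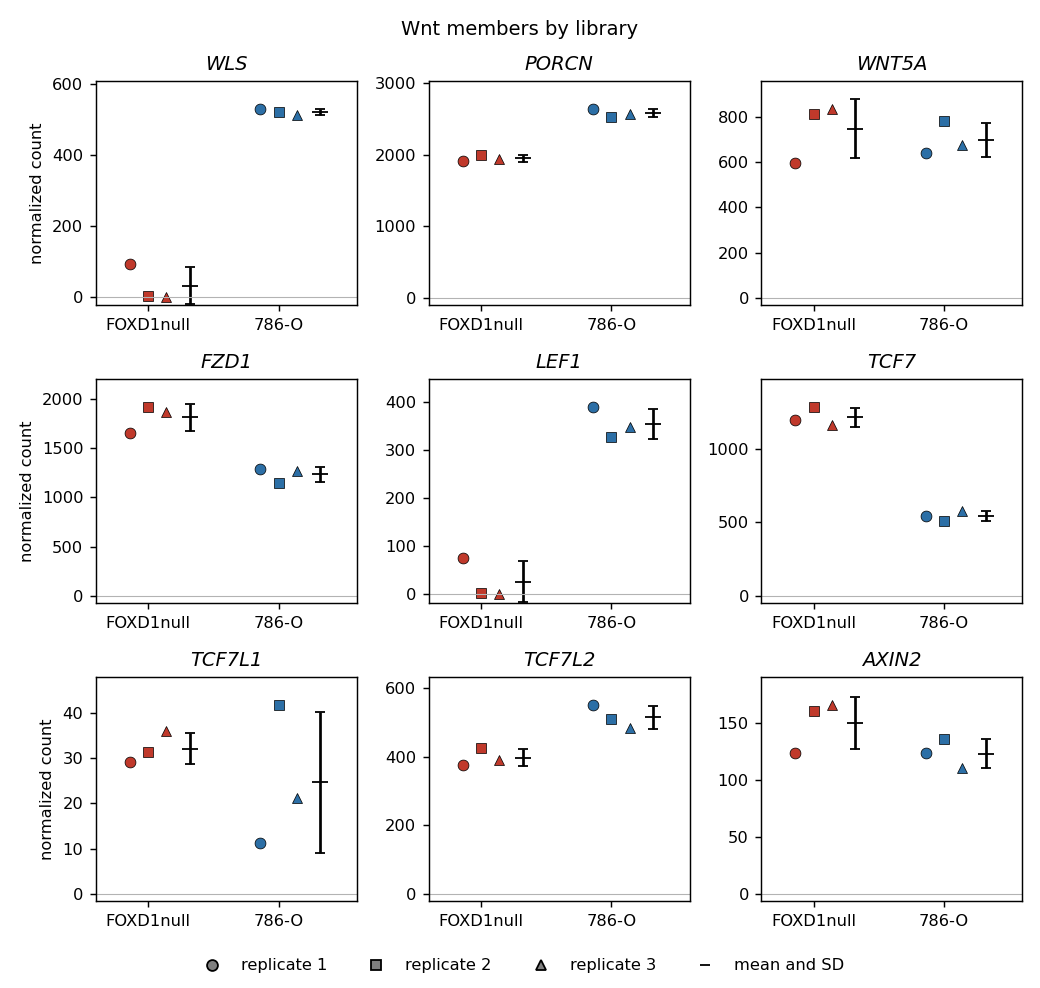
Normalized counts of the 9 measured members (vertical axes, each with its own scale) in the 3 libraries labelled FOXD1null and the 3 labelled 786-O, with the replicate given by the shape of the point and with mean and SD as bars. WLS and LEF1 lie between 0 and 93.8 in FOXD1null, against 328 to 529 in 786-O, and TCF7 lies between 1162 and 1282 in FOXD1null, against 510 to 574 in 786-O.

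WLS, the carrier that Wnt proteins need to leave the cell, was reduced to a few reads in most of the libraries labelled FOXD1null. It had 93.8, 4.04 and 0.971 normalized counts in replicates 1, 2 and 3 labelled FOXD1null, against 529, 520 and 514 in 786-O, with means of 32.9 ± 52.7 in FOXD1null and 521 ± 7.42 in 786-O (SD, n = 3 libraries each). These values rest on 87, 4 and 1 reads in FOXD1null, against 474, 574 and 559 reads in 786-O. All 3 libraries labelled FOXD1null lay below all 3 of 786-O, and replicate 1 lay far above the other 2. As a share of the 786-O mean, replicate 1 held 18.0%, replicate 2 held 0.776% (exact 95% Poisson interval 0.211 to 1.99%) and replicate 3 held 0.186% (0.00472 to 1.04%), intervals that cover counting error only. The log2 fold change was -5.74 (standard error 1.18, limma adjusted p = 0.0070). Limma averages logarithms, in which values near 0 weigh heavily, and DESeq2 on the recovered reads gave -3.99 (adjusted p = 0.0281) and edgeR gave -4.04 (adjusted p = 0.00621). WLS was called lower by all 3 methods. Without replicate 1 labelled FOXD1null it was -7.37 (adjusted p = 5.41e-12), and the adjusted p ranged between 8.67e-20 and 0.0337 over all alternatives. In bulk RNA, fewer cells that carry a transcript and less of it per cell cannot be told apart. On hg38, WLS (ENSG00000116729) spans 68098473 to 68233120 of chromosome 1 (minus strand).

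PORCN, which acts before WLS by acylating Wnt proteins, fell moderately. Its normalized counts were 1911, 2003 and 1941 in FOXD1null, against 2635, 2530 and 2576 in 786-O, with means of 1952 ± 46.7 in FOXD1null and 2580 ± 52.5 in 786-O (SD, n = 3 each). The groups were separate and each was narrow, with replicate 1 labelled FOXD1null close to the other 2. PORCN thus changed by -0.40 on the log2 scale (standard error 0.06, limma adjusted p = 0.0017, within 1.27e-08 to 0.0151 over the alternatives). PORCN (ENSG00000102312) lies on the plus strand of chromosome X, from 48508959 to 48520814.

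WNT5A, a secreted ligand, did not pass the test. It had 598, 813 and 834 normalized counts in replicates 1, 2 and 3 labelled FOXD1null, against 641, 783 and 675 in 786-O, with means of 749 ± 131 in FOXD1null and 700 ± 74.4 in 786-O (SD, n = 3 each). Replicate 1 was the lowest of all 6 libraries and replicates 2 and 3 were the highest, so the groups overlapped. The log2 fold change was 0.09 (standard error 0.14, limma adjusted p = 0.68), and with equal library totals its sign turned, to -0.00444. Without replicate 1 it was 0.24 (adjusted p = 0.0153), and without that library and 786-O replicate 2 it was 0.32 (adjusted p = 1.82e-04), over a range of adjusted p up to 0.997. The call for WNT5A thus depends on replicate 1. WNT5A (ENSG00000114251) lies on the minus strand of chromosome 3, from 55465715 to 55490539.

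FZD1, a receptor for Wnt proteins, rose. Its normalized counts were 1651, 1914 and 1869 in FOXD1null, against 1287, 1149 and 1269 in 786-O, with means of 1812 ± 141 in FOXD1null and 1235 ± 75.0 in 786-O (SD, n = 3 each). Each library labelled FOXD1null exceeded every 786-O library, replicate 1 by the least. On the log2 scale FZD1 changed by 0.55 (standard error 0.08, limma adjusted p = 0.0017, within 5.97e-11 to 0.0119 over the alternatives). FZD1 (ENSG00000157240) lies on the plus strand of chromosome 7, from 91264433 to 91271326.

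**Figure D2:**
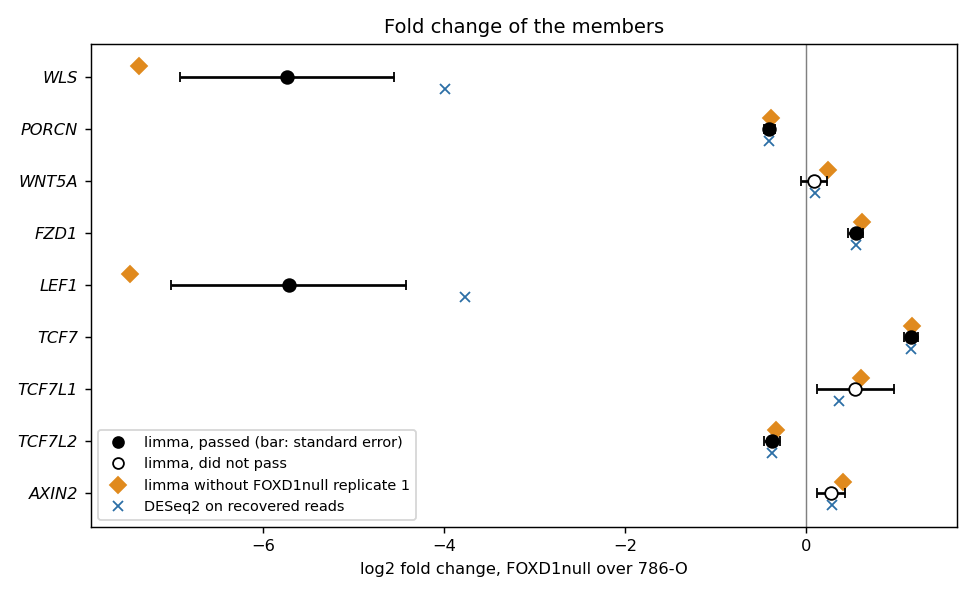
Log2 fold change of FOXD1null over 786-O (horizontal axis) for each of the 9 measured members, with limma's standard error as a bar around a filled point where the test passed and an open point where it did not. Diamonds leave out replicate 1 labelled FOXD1null and crosses are DESeq2 on recovered reads. WLS at -5.74 and LEF1 at -5.72 have the widest spread between settings, and TCF7 lies at 1.16 to 1.17 in all of them.

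LEF1, the TCF/LEF factor best known as an activator with beta-catenin, followed WLS library by library. It had 75.5, 3.03 and 0 normalized counts in replicates 1, 2 and 3 labelled FOXD1null, against 389, 328 and 348 in 786-O, with means of 26.2 ± 42.7 in FOXD1null and 355 ± 31.3 in 786-O (SD, n = 3 each). The reads behind these were 70, 3 and 0 in FOXD1null, against 349, 362 and 378 in 786-O. The groups did not overlap, and again replicate 1 lay between 786-O and the other 2 libraries. Replicate 1 held 21.2% of the 786-O mean and replicate 2 held 0.854% (exact 95% Poisson interval 0.176 to 2.49%). Replicate 3 had no read (exact 95% Poisson interval 0 to 1.01% of the 786-O mean). If LEF1 there is set to a floor of 3 reads, or 2.91 normalized counts, it is 122-fold lower than the 786-O mean. The log2 fold change was -5.72 (standard error 1.30, limma adjusted p = 0.011), at -3.82 by edgeR (adjusted p = 0.00974) and at -7.47 in limma without replicate 1 (adjusted p = 2.35e-10). DESeq2 on the recovered reads gave -3.76 and did not call it (adjusted p = 0.0961, the upper end of a range that begins at 5.08e-17). LEF1 (ENSG00000138795) lies on the minus strand of chromosome 4, from 108047545 to 108168956.

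Fibroblast markers, COL3A1 apart, moved in the same direction as WLS and LEF1. The 4 of 8 measured, COL1A1, COL3A1, PDGFRB and LUM, summed to 437, 320 and 284 normalized counts in replicates 1, 2 and 3 labelled FOXD1null, against 883, 898 and 750 in 786-O, and 3 of them were called lower. Among them LUM, which encodes the matrix proteoglycan lumican, had 18.3, 0 and 0 normalized counts in FOXD1null, against 125, 128 and 84.6 in 786-O. COL3A1 did not pass (limma adjusted p = 0.242). It had 2.16, 0 and 0 in FOXD1null, against 0, 56.2 and 5.52 in 786-O, so that most of it lay in 786-O replicate 2. EGFL7, the 1 endothelial marker measured of 8, had 512, 384 and 411 normalized counts in FOXD1null, against 1039, 944 and 1022 in 786-O. Whether other cells were present or the lines themselves made these RNAs was not tested. Any link to the WLS and LEF1 result was not tested either.

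TCF7, also called TCF1, rose in every library labelled FOXD1null. It had 1195, 1282 and 1162 normalized counts in FOXD1null, against 545, 510 and 574 in 786-O, with means of 1213 ± 61.9 in FOXD1null and 543 ± 31.8 in 786-O (SD, n = 3 each). The 2 groups were far apart, and replicate 1 lay within the range of the other 2 libraries of its group. The mean was 2.23 times that of 786-O, with a log2 fold change of 1.16 (standard error 0.08, limma adjusted p = 5.8e-05, within 8.27e-30 to 0.00113 over the alternatives). TCF7 (ENSG00000081059) lies on the plus strand of chromosome 5, from 134114681 to 134151865.

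TCF7L2, the family member prominent in gut epithelium and in metabolic tissue, fell. Its normalized counts were 376, 424 and 390 in FOXD1null, against 550, 510 and 483 in 786-O, with means of 397 ± 24.8 in FOXD1null and 515 ± 33.8 in 786-O (SD, n = 3 each). The groups did not overlap, at a smaller distance than for TCF7. This was a log2 fold change of -0.37 (standard error 0.09, limma adjusted p = 0.015), and the call was lost without 786-O replicate 1 (-0.32, adjusted p = 0.0716) and without 786-O replicate 2 (-0.38, adjusted p = 0.0524). TCF7L2 (ENSG00000148737) lies on the plus strand of chromosome 10, from 112950247 to 113167678.

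TCF7L1, the member best known as a repressor, had little RNA. It had 29.1, 31.3 and 35.9 normalized counts in FOXD1null, against 11.2, 41.7 and 21.2 in 786-O, with means of 32.1 ± 3.48 in FOXD1null and 24.7 ± 15.6 in 786-O (SD, n = 3 each). The 786-O libraries spread over the whole range of the FOXD1null libraries, with 786-O replicate 2 the highest of all 6. The log2 fold change was 0.55 (standard error 0.42, limma adjusted p = 0.36). Without replicate 1 labelled FOXD1null and 786-O replicate 2 it was 1.07 (adjusted p = 0.0112), and over all alternatives it ranged between 0.10 and 1.07. TCF7L1 (ENSG00000152284) lies on the plus strand of chromosome 2, from 85133392 to 85310387.

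The 4 TCF/LEF genes were then compared with each other as normalized counts per kilobase of exon, since longer transcripts give more reads. The length was that of all annotated exons of a gene joined, not of the transcripts expressed. Their summed level was 195, 198 and 181 per kilobase in FOXD1null, against 211, 197 and 198 in 786-O, with means of 191 ± 8.81 in FOXD1null and 202 ± 7.66 in 786-O (SD, n = 3 each; exact permutation test, two-sided, p = 0.2). These sums overlapped between the lines. Without division by exon length, an alternative added after seeing the data, they did not overlap and the order turned, with 1676, 1741 and 1589 normalized counts in FOXD1null, against 1495, 1391 and 1426 in 786-O (exact permutation test, two-sided, p = 0.1), so no direction of the summed level is given. The shares of LEF1, TCF7 and TCF7L2 did not overlap between the lines, and that of TCF7L1 did. LEF1 made up 7.22, 0.286 and 0% of the sum in replicates 1, 2 and 3 labelled FOXD1null, against 34.5, 31.1 and 32.7% in 786-O (2.50 ± 4.09% in FOXD1null and 32.8 ± 1.69% in 786-O, exact permutation test, two-sided, p = 0.1, which is as low as 6 libraries in such groups can give). TCF7 made up 60.8, 64.3 and 63.5% in FOXD1null, against 25.6, 25.7 and 28.7% in 786-O, with means of 62.9 ± 1.85% in FOXD1null and 26.7 ± 1.77% in 786-O. TCF7L2 made up 30.8 ± 1.89% in FOXD1null and 37.8 ± 1.41% in 786-O, and TCF7L1 made up 3.81 ± 0.587% in FOXD1null and 2.79 ± 1.82% in 786-O. In the libraries labelled FOXD1null, TCF7 was thus the most abundant of the 4 per kilobase, and in 786-O that place was held by TCF7L2. Without division by exon length, TCF7 and TCF7L2 overlapped in 786-O, with means of 543 and 515 normalized counts. Their order in 786-O thus depends on the division. Without division by exon length, the difference in the LEF1 share was -23.1 percentage points, against -30.3 with it. Gene-level counts do not separate the forms of LEF1 and TCF7 that lack the beta-catenin binding domain from the full-length forms.

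**Figure D3:**
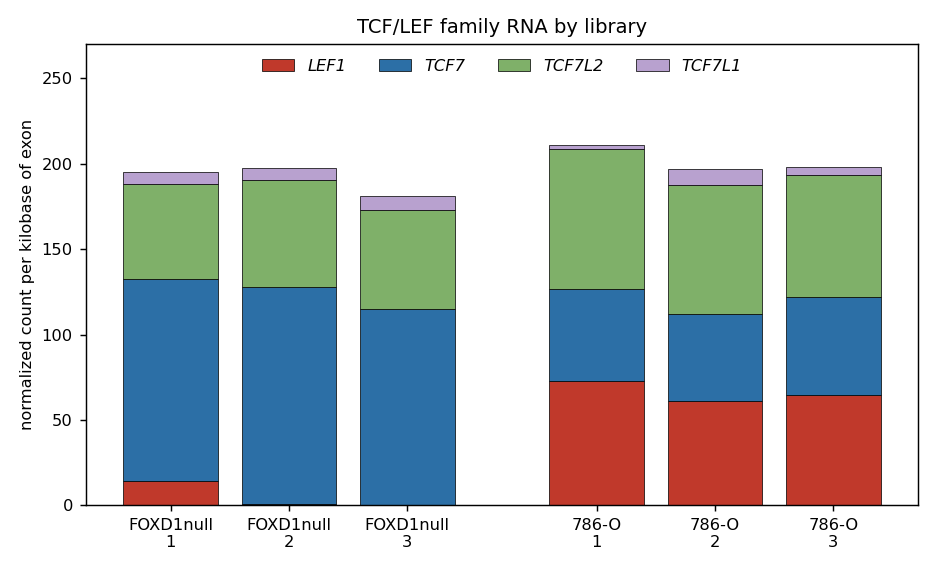
Normalized counts per kilobase of exon (vertical axis, from 0) of LEF1, TCF7, TCF7L2 and TCF7L1, stacked in each of the 3 libraries labelled FOXD1null (left) and the 3 labelled 786-O (right). The stacks reach between 181 and 198 in FOXD1null and between 197 and 211 in 786-O, with LEF1 at 0 to 7.22% of the stack in FOXD1null and at 31.1 to 34.5% in 786-O.

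AXIN2, a scaffold of the destruction complex whose transcription is widely used as a readout of beta-catenin signaling, did not pass. It had 124, 161 and 166 normalized counts in replicates 1, 2 and 3 labelled FOXD1null, against 124, 136 and 110 in 786-O, with means of 150 ± 22.9 in FOXD1null and 123 ± 12.8 in 786-O (SD, n = 3 each). Replicates 2 and 3 lay above every 786-O library and replicate 1 lay among them. On the log2 scale the difference was 0.27 (standard error 0.15, limma adjusted p = 0.21). It passed without replicate 1, at 0.41 (adjusted p = 0.0158), and without that library and 786-O replicate 2, at 0.48 (adjusted p = 0.0074, in a range of adjusted p up to 0.473). AXIN2 (ENSG00000168646) lies on the minus strand of chromosome 17, from 65528563 to 65561648.

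Per kilobase of exon, the order of the members in FOXD1null was PORCN (337 ± 8.07 normalized counts per kilobase), FZD1 (263 ± 20.4), TCF7 (120 ± 6.14), WNT5A (105 ± 18.3), TCF7L2 (58.9 ± 3.68), AXIN2 (28.9 ± 4.41), WLS (7.39 ± 11.8), TCF7L1 (7.25 ± 0.786) and LEF1 (4.88 ± 7.97). TCF7 and WNT5A overlapped between libraries there, and so did WLS, TCF7L1 and LEF1. In 786-O the order was PORCN (445 ± 9.05), FZD1 (179 ± 10.9), WLS (117 ± 1.66), WNT5A (97.8 ± 10.4), TCF7L2 (76.4 ± 5.02), LEF1 (66.2 ± 5.84), TCF7 (53.8 ± 3.15), AXIN2 (23.7 ± 2.46) and TCF7L1 (5.57 ± 3.51). Of those neighbours, TCF7L2 and LEF1 overlapped in 786-O. WLS and LEF1 thus stood at the low end of the order in FOXD1null and in its middle in 786-O, while PORCN and FZD1 led it in both lines.

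The other genes of the pathway were read by role from lists of ligands, receptors, inhibitors, cytoplasmic components, nuclear cofactors and targets. Of 120 such genes besides the members, 84 were tested, of which 16 were higher, 31 lower and 37 did not pass. Their median log2 fold change was -0.03, against -0.01 for all genes tested. Without replicate 1 labelled FOXD1null 32 were higher and 33 lower, and without that library and 786-O replicate 2 30 were higher and 34 lower. By list, the genes called higher without replicate 1 were 2 ligands, 5 receptors, 8 genes of the Dishevelled and destruction complex list, 8 of beta-catenin and its nuclear partners and 7 of planar polarity and calcium, members included, against 1, 2, 3, 4 and 2 with all libraries. Over all 16901 genes tested, 4635 were higher without replicate 1 and 4658 without both libraries, against 2751 with all libraries. Counting both directions, the share of all genes called was 55% without replicate 1 and without both libraries, against 33.4% with all libraries. With all libraries 16.3% of all genes tested were higher and 17.1% lower, and the counts by list below were not tested against these shares.

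**Figure D4:**
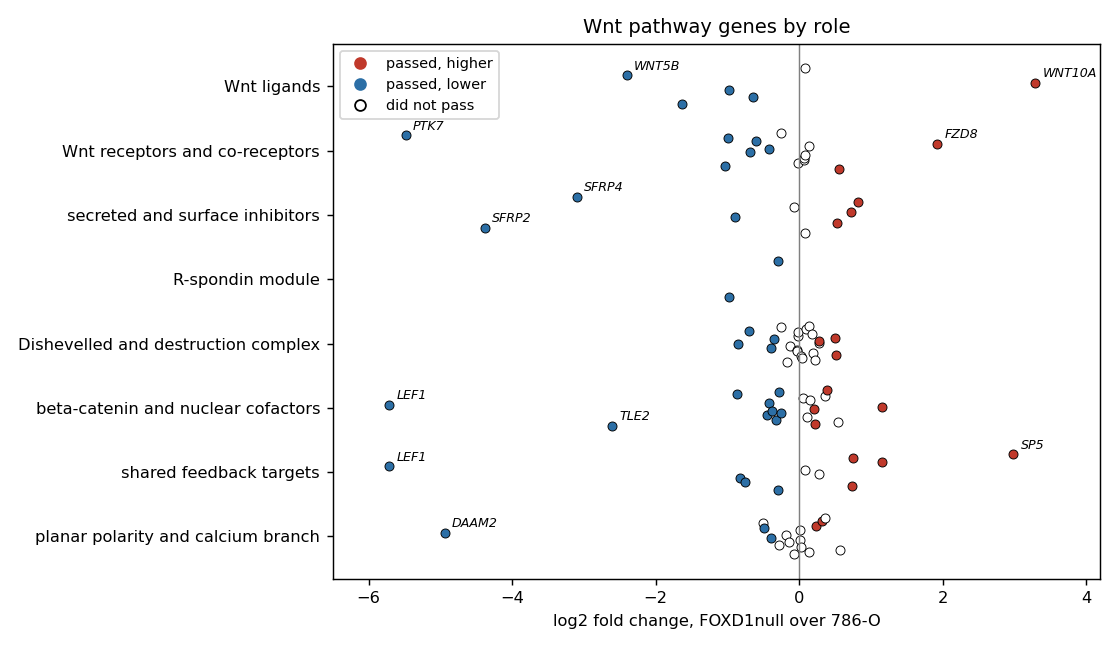
Log2 fold change of FOXD1null over 786-O (horizontal axis) for the tested genes of each Wnt pathway list (rows), with the members included and a gene shown in each list that holds it. Red points passed as higher, blue points passed as lower and open points did not pass, and the outermost genes are named, from LEF1 at -5.72 and PTK7 at -5.48 to SP5 at 2.99 and WNT10A at 3.29.

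Of 19 Wnt ligands, 6 were measured and 1 was higher, 4 were lower and WNT5A did not pass. WNT7B, a ligand of epithelia that signals through beta-catenin, had 289, 177 and 159 normalized counts in FOXD1null, against 395, 372 and 424 in 786-O (log2 fold change -0.98, standard error 0.21, limma adjusted p = 0.0078). WNT3 fell by 1.63 and WNT2B fell by 0.64 on the log2 scale. WNT5B, the close relative of WNT5A, and WNT10A were named after their values were seen and had little RNA. WNT5B had 6.47, 3.03 and 5.83 normalized counts in FOXD1null, against 35.7, 30.8 and 24.8 in 786-O, and WNT10A had 23.7, 27.3 and 26.2 in FOXD1null, against 3.35, 0 and 3.68 in 786-O.

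Of 16 receptors and co-receptors, 14 were measured, of which 2 were higher, 6 were lower and 6 did not pass. PTK7, a receptor-like pseudokinase of planar cell polarity, had 90.5, 6.06 and 0.971 normalized counts in replicates 1, 2 and 3 labelled FOXD1null, against 491, 497 and 464 in 786-O (log2 fold change -5.48, standard error 1.14, limma adjusted p = 0.0074). ROR2, a receptor kinase through which WNT5A can act, had 268, 337 and 288 in FOXD1null, against 657, 617 and 548 in 786-O, and fell by 1.03 on the log2 scale. FZD8, the other receptor that rose beside FZD1, had 812, 1641 and 1379 normalized counts in FOXD1null, against 307, 338 and 320 in 786-O (log2 fold change 1.93). FZD2 fell by 0.99. FZD6 and LRP5, a co-receptor of the beta-catenin branch, were abundant and did not pass, at 0.07 and -0.02, and both signs turned under other settings (FZD6 with equal library totals, LRP5 without replicate 1 labelled FOXD1null). FZD6 passed as higher without replicate 1 labelled FOXD1null (0.19, adjusted p = 5.55e-04) and without that library and 786-O replicate 2 (0.20, adjusted p = 1.16e-04).

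Secreted and cell-surface inhibitors moved in both directions. Of 18 inhibitors, 8 were measured, of which 3 were higher, 3 were lower and KREMEN1 and NOTUM did not pass. TRABD2A and TRABD2B encode related membrane proteases that cut Wnt proteins, and they moved apart. TRABD2A had 748, 620 and 623 normalized counts in FOXD1null, against 374, 356 and 395 in 786-O (log2 fold change 0.82). TRABD2B had 474, 527 and 481 normalized counts in FOXD1null, against 962, 844 and 944 in 786-O (log2 fold change -0.89). DKK3, a divergent relative of DKK1, rose by 0.72 and KREMEN2, a receptor for Dickkopf proteins named after its values were seen, rose by 0.53, a call lost without 786-O replicate 1 (adjusted p = 0.0605) and without 786-O replicate 3 (adjusted p = 0.0687). SFRP4, a soluble protein related to the Frizzled ligand-binding domain, had 25.9, 9.09 and 8.74 normalized counts in FOXD1null, against 141, 101 and 115 in 786-O (log2 fold change -3.10). SFRP2, of the same family and named after its values were seen, had 14.0, 0 and 0 in FOXD1null, against 52.5, 55.3 and 44.2 in 786-O, and was called by limma (-4.38, adjusted p = 0.0094) and not by DESeq2 (adjusted p = 0.153). KREMEN1 had a log2 fold change of -0.07, which turned to 0.03 without replicate 1 labelled FOXD1null, and NOTUM, a lipase that removes the Wnt lipid, had one of 0.08, which turned to -0.00852 with equal library totals.

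The R-spondin module holds Wnt receptors at the cell surface. LGR4, an R-spondin receptor, had 564, 612 and 605 normalized counts in FOXD1null, against 1192, 1148 and 1158 in 786-O (log2 fold change -0.97, standard error 0.07, limma adjusted p = 7.6e-05). ZNRF3, the ubiquitin ligase that removes Frizzled proteins and that R-spondins block, fell by 0.29 (adjusted p = 0.018), a call lost without any single 786-O library. Both measured genes of the 9 in this list were thus lower.

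Among Dishevelled proteins and the destruction complex, most genes did not pass, as among all genes tested (11262 of 16901). Of 24 genes 22 were measured, of which 3 were higher, 4 were lower and 15 did not pass. The Dishevelled genes, which carry the signal inward from Frizzled, moved apart. DVL2 had 1058, 989 and 961 normalized counts in FOXD1null, against 1891, 1713 and 1812 in 786-O (log2 fold change -0.85), and DVL1 had 6277, 5844 and 5331 in FOXD1null, against 4012, 3941 and 4260 in 786-O (log2 fold change 0.51). AXIN1, the constitutive counterpart of AXIN2, had 2017, 1966 and 1861 normalized counts in FOXD1null, against 1297, 1402 and 1435 in 786-O (log2 fold change 0.50, standard error 0.07, limma adjusted p = 0.0013). FRAT1, which binds GSK3, fell by 0.70. CSNK1E, CSNK1G1 and APC2 were named after their values were seen, at 0.28, -0.39 and -0.35, and the call for CSNK1G1 was lost without 786-O replicate 1 (adjusted p = 0.085) and without 786-O replicate 3 (adjusted p = 0.0839). The casein kinases CSNK1D and CSNK1A1 did not pass, at -0.13 and -0.03, and CSNK1A1 turned to 0.06 without replicate 1 labelled FOXD1null. CSNK1D passed as lower without replicate 1 labelled FOXD1null (-0.20, adjusted p = 2.2e-04), without that library and 786-O replicate 2 (-0.21, adjusted p = 2.85e-05) and with equal library totals (-0.22, adjusted p = 0.0467).

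Of 18 genes for beta-catenin and its nuclear partners, all were measured, 4 were higher, 9 were lower and 5 did not pass. CTNNB1, which encodes beta-catenin, had 13172, 12099 and 11985 normalized counts in FOXD1null, against 16617, 16496 and 16643 in 786-O, with means of 12418 ± 655 in FOXD1null and 16585 ± 78.3 in 786-O (SD, n = 3 each; log2 fold change -0.42, standard error 0.06, limma adjusted p = 0.0015). CTNNBIP1, an inhibitor that keeps beta-catenin off the TCF/LEF factors, had 1224, 1315 and 1232 in FOXD1null, against 984, 907 and 994 in 786-O (log2 fold change 0.39). CHD8, a chromatin remodeler that binds beta-catenin, fell by 0.45, and PYGO1, a reader of histone methylation that the adaptor BCL9 brings to beta-catenin, fell by 0.86. TLE2, a corepressor gene named after its values were seen, had 3.23, 1.01 and 2.91 normalized counts in FOXD1null, against 14.5, 31.7 and 13.8 in 786-O. CTBP1 and CTBP2, corepressors also named after their values were seen, were at 0.21 and 0.22, and both calls were lost with equal library totals (adjusted p = 0.167 for CTBP1 and 0.111 for CTBP2), without replicate 2 labelled FOXD1null and without any single 786-O library, and that for CTBP2 also without replicate 3 labelled FOXD1null. The adaptors BCL9L and BCL9 had log2 fold changes of 0.11 and 0.05 and the TLE genes TLE5 and TLE3 of 0.15 and 0.36, and with TCF7L1 they made up the 5 that did not pass. The signs of BCL9L and BCL9 turned without replicate 2 labelled FOXD1null, and the sign of BCL9 also turned without replicate 3 and with equal library totals. Without replicate 1 labelled FOXD1null all 4 passed as higher, BCL9L at 0.31 (adjusted p = 1.65e-04), BCL9 at 0.19 (adjusted p = 0.00221), TLE5 at 0.12 (adjusted p = 0.0281) and TLE3 at 0.50 (adjusted p = 1.79e-05). BCL9L, BCL9 and TLE3 also passed without that library and 786-O replicate 2, and TLE3 passed in DESeq2 (adjusted p = 0.0309), its adjusted p being 0.204 at most in the alternatives.

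Genes that beta-catenin and TCF/LEF factors activate in many tissues did not move as a group. Of 16 such targets, 10 were measured, of which 4 were higher, 4 were lower and AXIN2 and NOTUM did not pass, and LEF1 and TCF7 are among them. SP5, a zinc finger repressor whose start region is printed above, had 432, 396 and 356 normalized counts in FOXD1null, against 40.2, 56.2 and 51.5 in 786-O (log2 fold change 2.99, standard error 0.15, limma adjusted p = 2.5e-05). The cyclin gene CCND1 had 20173, 27577 and 27144 in FOXD1null, against 14730, 14173 and 15377 in 786-O (log2 fold change 0.74), and MYC, named after its values were seen, rose by 0.74. BAMBI, a pseudoreceptor of the TGF-beta family, fell by 0.83, and TNFRSF19, a receptor also called TROY, had 1929, 1856 and 1901 normalized counts in FOXD1null, against 3172, 3221 and 3206 in 786-O (log2 fold change -0.75). ZNRF3 and LEF1, given above, were the other targets that fell.

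In the branch of planar polarity and calcium, 16 of 18 genes were measured, of which 2 were higher, 3 were lower and 11 did not pass. DAAM2, a formin that binds Dishevelled, had 21.6, 2.02 and 0 normalized counts in replicates 1, 2 and 3 labelled FOXD1null, against 144, 109 and 122 in 786-O (log2 fold change -4.94, standard error 0.95, limma adjusted p = 0.0052). PRICKLE2 fell by 0.49 and PRICKLE1 fell by 0.40, both genes of the planar polarity core. RHOA, a small GTPase, rose by 0.32, and RAC1, another one, named after its values were seen, rose by 0.23, a call lost with equal library totals (0.14, adjusted p = 0.125), without replicate 2 labelled FOXD1null and without any single 786-O library. CELSR1 and SCRIB did not pass, at 0.14 and 0.03, and SCRIB turned to -0.07 with equal library totals. CELSR1 passed as higher without replicate 1 labelled FOXD1null (0.33, adjusted p = 1.57e-05) and without that library and 786-O replicate 2 (0.28, adjusted p = 3.7e-07).

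WLS, LEF1, PTK7 and DAAM2 shared a pattern with other genes. Among genes with a 786-O mean of at least 100, 68 had a mean in replicates 2 and 3 labelled FOXD1null of under 5% of the 786-O mean, these 4 included. In replicate 1 the 68 genes held a median of 21.5% of the 786-O mean, with quartiles of 18.7 and 23.8%. WLS at 18.0%, LEF1 at 21.2%, PTK7 at 18.7% and DAAM2 at 17.2% lay inside or just below those quartiles. In 54 of the 68 genes, these 4 included, every 786-O library held at least 50% of the 786-O mean, and replicate 1 held a median of 20.4% of that mean (quartiles 18.5 and 23.0%). In 12 of the other 14, at least 90% of the 786-O sum came from 786-O replicate 2, so that their mean rests on that library, and MYH6 and MYH7 are among them. The source of this share was not tested.

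**Figure D5:**
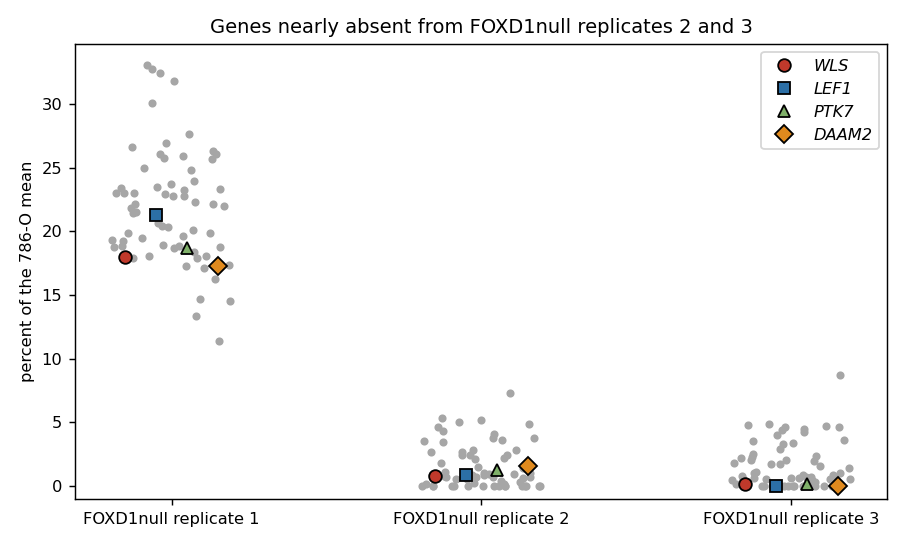
Normalized count as a percent of the 786-O mean (vertical axis, from 0) in each of the 3 libraries labelled FOXD1null, for 68 genes with a 786-O mean of at least 100 whose mean in replicates 2 and 3 was under 5% of it, 12 of which 786-O held mostly in its replicate 2. Grey points are single genes, and WLS, LEF1, PTK7 and DAAM2 have colored symbols, at 17.2 to 21.2% in replicate 1 and at 0 to 1.62% in replicates 2 and 3.

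The genes nearest to WLS in pattern were found by Euclidean distance over the 6 libraries, on log2(normalized count + 1) relative to the 786-O mean, among 11763 genes with a mean of at least 100. They were SCARA3 (distance 0.269), LEF1 (0.565), PTK7 (0.609), PKP2 (0.737) and SFMBT2 (0.771). Those nearest to LEF1 were SCARA3 (0.359), SFMBT2 (0.417), WLS (0.565), PTK7 (0.696) and PKP2 (0.934). WLS and LEF1 were thus in each other's nearest 5, and the other 4 genes were shared. In replicates 2 and 3 labelled FOXD1null these distances rest on few reads, 4 and 1 for WLS and 3 and 0 for LEF1. On this scale 1 read more or fewer can change the order, so it does not set WLS and LEF1 apart from other genes of the pattern. SCARA3, a scavenger receptor gene, had 56.1, 2.02 and 0 normalized counts in replicates 1, 2 and 3 labelled FOXD1null, against 302, 260 and 293 in 786-O. PKP2, which encodes a plakophilin of the desmosome, had 37.7, 2.02 and 0 in FOXD1null, against 200, 203 and 203 in 786-O, and SFMBT2, a Polycomb group gene, had 73.3, 4.04 and 0 in FOXD1null, against 472, 396 and 419 in 786-O. These 3 genes passed in limma and did not pass in DESeq2 (adjusted p = 0.0783 for SCARA3, 0.0501 for PKP2 and 0.0594 for SFMBT2).

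Genes around WLS, LEF1 and TCF7 showed no shift of like size. Within 5 Mb on each side, the median log2 fold change of the tested genes was 0.00 around WLS (35 genes) and -0.07 around LEF1 (41 genes), and over the 9 members it ranged between -0.07 around AXIN2 and 0.13 around FZD1. TCF7 lay among 74 genes with a median of 0.06. Around TCF7L2 the median was -0.04 over 38 genes, of which 11 were lower and 3 higher, and within 2 Mb it was -0.19 over 17 genes, of which 7 were lower and 1 was higher. Within 2 Mb of LEF1, 5 of 18 genes were lower and 3 higher, and within 2 Mb of WLS, 0 of 13 were lower and 1 was higher. Within 5 Mb of FZD1, 18 of 50 genes were higher and 6 lower, and within 2 Mb 5 of 23 were higher and 5 lower. Within 2 Mb of TCF7, 11 of 51 genes were higher and 3 lower. Within 2 Mb of PORCN, which itself fell, 15 of 62 were higher and 2 lower. Of all genes tested, 17.1% were lower and 16.3% higher, and none of these counts was tested against those shares.

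Overlapping genes limit some of these values, because no source used here states whether counting took strand into account. GNG12-AS1, antisense to WLS with 111 bp of shared exon, had 6.47, 14.1 and 23.3 normalized counts in FOXD1null, against 13.4, 19.9 and 11.0 in 786-O. SKP1, which runs toward TCF7 on the other strand with 210 bp of shared exon, had 10855, 9200 and 8863 in FOXD1null, against 8789, 8923 and 8795 in 786-O. Neither followed the pattern of its partner. LEF1-AS1 shares 279 bp with LEF1 and an antisense gene shares 300 bp with TCF7L2, and both are not analysed here. AXIN2 shares 1316 bp of exon with a gene model on the same strand, so its counts are uncertain. WNT5A-AS1, which shares no exon sequence with WNT5A, had 28.0, 76.8 and 75.7 normalized counts in FOXD1null, against 44.6, 46.2 and 57.0 in 786-O, with replicate 1 the lowest library, as for WNT5A.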

How the data were processed

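RNA of 3 libraries labelled FOXD1null and 3 labelled 786-O was sequenced. Per the study's methods and the submitters' processing notes, Trimmomatic 0.36 was used by the authors for trimming, STAR 2.5.2b for alignment to hg38, featureCounts for counting uniquely mapped exon reads by gene, and DESeq2 for their own comparison. The sources used here give neither the annotation release nor the strand setting. The deposited table holds, for 16922 genes, a normalized count signal per library, which is the authors' read count divided by 1 size factor per library. It also holds the authors' group means, their log2 fold change, their p-value and adjusted p-value and the difference of the means, an other kind of value, and none of these columns was used. No column belonged to a sample outside the series.

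Each value was a whole multiple of the value of 1 read, within 0.001 of a read for 100% of values, so whole reads and size factors were recovered. Size factors were 0.928, 0.990 and 1.03 in FOXD1null and 0.896, 1.10 and 1.09 in 786-O. Names and positions came from GENCODE release 44 for 16747 genes, and start windows came from RefSeq.

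Values were tested as log2(normalized count + 1) in limma 3.58.1 under R 4.3.3, with eBayes and its trend option and no covariates, over 16901 genes with a mean of at least 10 (21 left out), with Benjamini-Hochberg adjustment and a threshold of 0.05. A fold change here is on the log2(normalized count + 1) scale, and that of a gene with few reads depends on the pseudocount and on averaging logarithms. Single values were compared by exact two-sided permutation over libraries, which cannot go below 0.1. Alternatives were edgeR 4.0.16 and DESeq2 1.42.0 on the recovered reads, pseudocounts of 0.5 and 5, no filter, a mean of at least 50, equal library totals, TMM factors, a replicate block and leaving out each library. The fitting steps were tested on simulated data. Other steps ran in Python 3.11.15 with pandas 2.3.3, scipy 1.17.1, numpy 2.4.6 and, for figures, matplotlib 3.10.9.

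The members and lists were chosen with earlier results of these data known. Named were all members, the targeted gene FOXD1, from each list the 4 largest changes among genes called with a mean of at least 50 and up to 2 genes with a mean of at least 1000 that did not pass, the nearest profiles of WLS and LEF1, and overlapping antisense genes. Other genes are marked as named after their values were seen. A comparison of TCF/LEF proteins was not run.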

Additional observations from a re-analysis of the deposited data

How the results depend on the processing

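Of the calls for the 9 measured members, those for WLS, PORCN, FZD1 and TCF7 held under every alternative tried. LEF1 was not called by DESeq2, TCF7L2 was not called without 786-O replicate 1 or 2, WNT5A and AXIN2 passed without FOXD1null replicate 1, and TCF7L1 passed without FOXD1null replicate 1 and 786-O replicate 2, a setting chosen after seeing the data. The members called higher ranged between 2 and 4 when 1 library was left out (4 without FOXD1null replicate 1), and 5 were called higher without both of those libraries. Of the other pathway genes, between 12 and 32 were higher with 1 library left out (32 without FOXD1null replicate 1), and 30 were higher without both. Over all genes, those called higher ranged between 1798 and 4635 and those called lower between 1823 and 4667 with 1 library left out, the highest counts without FOXD1null replicate 1 and the lowest without 786-O replicate 1. Without both libraries they were 4658 and 4637. The cause of these shifts was not tested. The difference in the LEF1 share of the family was -23.1 percentage points without division by exon length, and the summed TCF/LEF level was then 16.1% higher in FOXD1null, a reversed direction.

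Signs turned for genes that did not pass. With equal library totals the log2 fold change was -0.00444 for WNT5A, -0.0420 for BCL9, -0.0248 for FZD6, -0.00852 for NOTUM and -0.0652 for SCRIB. With 1 library left out it ranged between -0.0291 and 0.193 for BCL9, between -0.0193 and 0.308 for BCL9L, between -0.0816 and 0.0550 for CSNK1A1, between -0.134 and 0.0319 for KREMEN1, between -0.0843 and 0.0511 for LRP5, between -0.196 and 0.349 for NOTUM and between -0.0485 and 0.0876 for SCRIB. Without FOXD1null replicate 1 and 786-O replicate 2 it was 0.0512 for CSNK1A1, 0.0318 for LRP5, -0.254 for NOTUM and -0.0737 for SCRIB. The cause was not tested.

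The replicate block called 2391 genes higher and 2489 lower. The deviations of libraries that share a number had correlations of -0.25, -0.23 and 0.0052, and 0 of 6 libraries correlated best with its own number. These deviations are from means of 3 libraries, among which FOXD1null replicate 1 and 786-O replicate 2 stand apart. They thus showed no pairing by number but cannot decide whether the libraries were paired. The block changed no member's call. CTBP1, CTBP2 and RAC1 were not called with it.

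These limits bear on the members. WLS and LEF1 in FOXD1null rest on at most 4 reads in replicates 2 and 3, and their fitted fold changes depend on the pseudocount and on the method. TCF7L1, with 11.2 to 41.7 normalized counts, differed by less than the spread of the 786-O libraries. With 3 libraries a group and a library that stands apart in each, small changes of WNT5A and AXIN2 depended on which libraries were kept.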
